A study of Homo sapiens with 24 samples.

Results

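The 6 genes described here encode the CXC chemokines that attract neutrophils: CXCL1, CXCL2, CXCL3, CXCL5, CXCL6 and CXCL8. They were taken by gene symbol from a table of 18632 genes, and all 6 were found. Their mRNA was measured on 24 whole-transcript arrays, 3 for each of 8 groups of cultured human thyroid cells. TPC-1, a papillary thyroid carcinoma line, was kept in DMEM, and Nthy-ori 3-1, normal follicular cells of the thyroid that carry SV40 for immortality, in RPMI medium, so line and medium cannot be told apart. In each line, wells received siCOPZ1, which targets the COPZ1 subunit of the COPI vesicle coat, or the non-targeting control siNT, both at 20 nM with Lipofectamine RNAiMAX, and RNA was taken 48 h or 72 h later. The 8 groups are thus TPC-1 with siCOPZ1 and with siNT at 48 h and at 72 h, and Nthy-ori 3-1 with siCOPZ1 and with siNT at the same times. siCOPZ1 is an esiRNA, an enzymatically cut pool of duplexes, whereas siNT is a synthetic control siRNA, so the kind of reagent and the depletion cannot be told apart in any comparison of siCOPZ1 with siNT. The 3 arrays of a group are triplicate wells of 1 line, and every p-value measures only the spread between wells, which may be technical.

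These chemokines are small secreted proteins whose N terminus carries the glutamate-leucine-arginine (ELR) motif. CXCL8, also called interleukin 8, and CXCL6 act on both neutrophil receptors CXCR1 and CXCR2, whereas CXCL1, CXCL2, CXCL3 and CXCL5 act mainly on CXCR2. Epithelial cells and fibroblasts make them within hours of exposure to interleukin 1 or TNF, through the transcription factor NF-kB at their promoters and through longer life of their mRNAs. CXCL8 is secreted by thyroid follicular cells and by many thyroid tumours.

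The genes lie side by side on chromosome 4, and their promoters share a short element that is shown here because all 6 have it. In RefSeq, assembly GRCh38.p14, CXCL8 (chr4:73740569-73743716), CXCL6 (chr4:73836678-73838760) and CXCL1 (chr4:73869393-73871308) are on the + strand. CXCL5 (chr4:73995642-73998677), CXCL3 (chr4:74036589-74038689) and CXCL2 (chr4:74097040-74099195) are on the - strand. The stretch of 358.627 kb from the first to the last holds 9 protein-coding genes, the others being PF4V1, PF4 and PPBP. All 6 genes matched a RefSeq promoter of 300 bases. The 150 bases before each annotated start follow, 5′ to 3′ in the direction of the gene, with matches to the NF-kB element GGAATTTCC and to the AP-1 element TGACTCA in capitals.
CXCL8 (chr4:73740419-73740568, + strand): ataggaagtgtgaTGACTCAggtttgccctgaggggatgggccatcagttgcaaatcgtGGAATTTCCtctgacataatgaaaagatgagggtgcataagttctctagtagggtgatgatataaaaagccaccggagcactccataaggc
CXCL1 (chr4:73869243-73869392, + strand): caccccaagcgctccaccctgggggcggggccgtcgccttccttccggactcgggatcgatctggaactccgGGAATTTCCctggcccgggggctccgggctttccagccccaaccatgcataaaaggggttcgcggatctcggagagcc
CXCL2 (chr4:74099196-74099345, - strand): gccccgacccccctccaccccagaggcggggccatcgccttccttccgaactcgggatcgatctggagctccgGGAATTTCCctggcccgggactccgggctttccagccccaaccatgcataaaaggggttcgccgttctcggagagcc
CXCL3 (chr4:74038690-74038839, - strand): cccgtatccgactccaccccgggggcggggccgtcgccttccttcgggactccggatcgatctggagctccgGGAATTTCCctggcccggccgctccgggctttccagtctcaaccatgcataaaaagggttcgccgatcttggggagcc
CXCL5 (chr4:73998678-73998827, - strand): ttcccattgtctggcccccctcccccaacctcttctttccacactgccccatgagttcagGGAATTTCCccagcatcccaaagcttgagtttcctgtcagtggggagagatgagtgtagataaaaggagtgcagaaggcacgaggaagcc
CXCL6 (chr4:73836528-73836677, + strand): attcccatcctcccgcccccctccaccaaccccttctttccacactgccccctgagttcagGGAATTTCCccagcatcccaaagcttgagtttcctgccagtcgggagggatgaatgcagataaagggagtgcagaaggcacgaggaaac

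The letters GGAATTTCC stood on the strand of the gene in 6 of 6 promoters. Counting from the annotated start, they lay at bases -91 to -83 in CXCL8, -78 to -70 in CXCL1 and CXCL3, -77 to -69 in CXCL2, -90 to -82 in CXCL5 and -89 to -81 in CXCL6. On either strand they were found in 126 of 27305 RefSeq promoters of that length, or 0.461%. No other spelling of the NF-kB element was sought, so this share does not count promoters with other NF-kB sites. The AP-1 letters, also sought on both strands, were found in CXCL8 alone among the 6, at bases -137 to -131, and in 5.05% of all promoters. The GC box GGGCGG, on either strand, was found in CXCL1 and CXCL3 at bases -128 to -123 and at 2 places in CXCL6, and in 43.8% of all promoters. The neighbours PF4V1 and PPBP had none of these letters in their promoters, and the promoter of PF4 was not examined. The matches are not independent of one another, since the genes are copies: promoter identity was 83.1% between CXCL5 and CXCL6 and 82.5% between CXCL1 and CXCL3, against 45.2% to 48.0% between CXCL8 and the others.

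**Figure D1:**
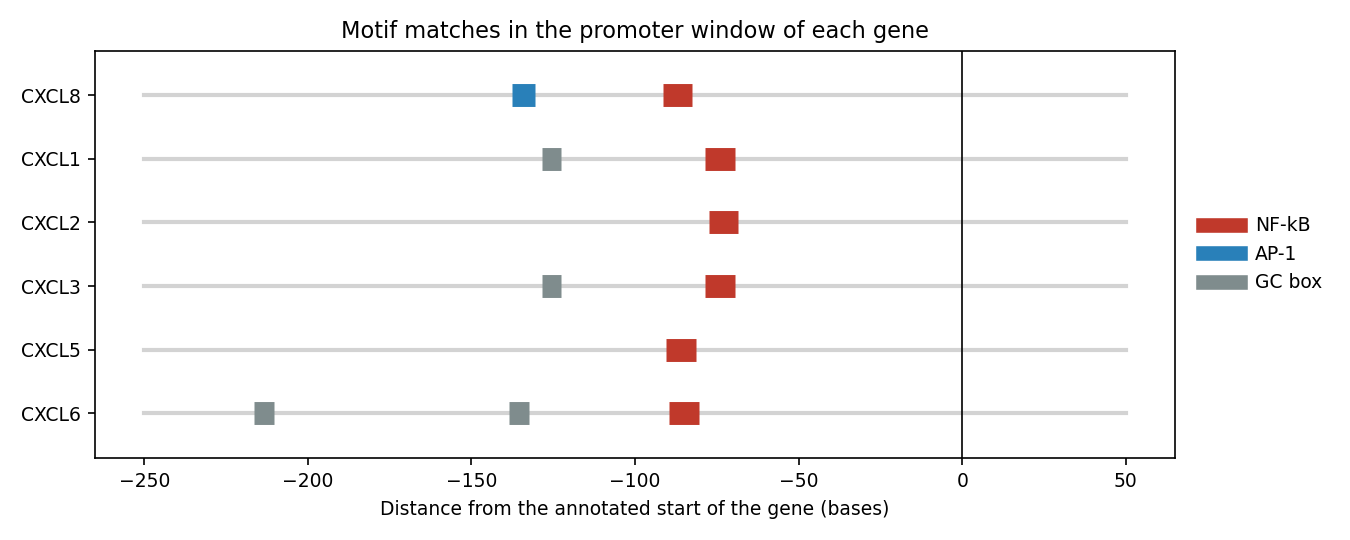
Positions of motif matches (coloured blocks) in the 300 bases around the annotated start of each chemokine gene, with distance from the start in bases on the horizontal axis and 1 gene per line. The NF-kB letters lie within the last 150 bases before the start in all 6 genes, and the AP-1 letters are found in CXCL8 alone.

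Before the chemokines, the arrays were checked against their labels. COPZ1 fell to 10.5% and 22.2% of its siNT level in TPC-1 at 48 h and 72 h and to 25.8% and 33.6% in Nthy-ori 3-1, with no overlap between siCOPZ1 and siNT arrays. Across genes, arrays of the same group correlated with one another at 0.971 to 0.989. PAX8, a thyroid lineage factor, was high in both lines, at a log2 level of 12.3 in TPC-1 and 10.4 in Nthy-ori 3-1, while SLC5A5, the iodide transporter of differentiated follicular cells, was low in both, at 4.57 in TPC-1 and 4.59 in Nthy-ori 3-1. In a table whose values run from 1.70 to 14.2, the 10 neutrophil and myeloid markers had TPC-1 means from 2.57 for FCGR3B, a neutrophil Fc receptor, to 6.14 for ELANE, neutrophil elastase, which 42.6% of genes lay below. The leukocyte antigen PTPRC was at 3.26, and the formyl peptide receptor gene FPR1, MPO (myeloperoxidase) and CD14 were at 5.61, 4.89 and 4.62. The mean of the 10 markers ran from 4.05 to 4.37 on TPC-1 siCOPZ1 arrays and from 4.06 to 4.38 on TPC-1 siNT arrays. In TPC-1 at 72 h 0 of the 10 were called higher and 2 lower. Of all genes, 7.03% were called higher there and 14.4% in either direction. These cultures hold thyroid cells alone by their labels, so neutrophils themselves were not studied.

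**Figure D2:**
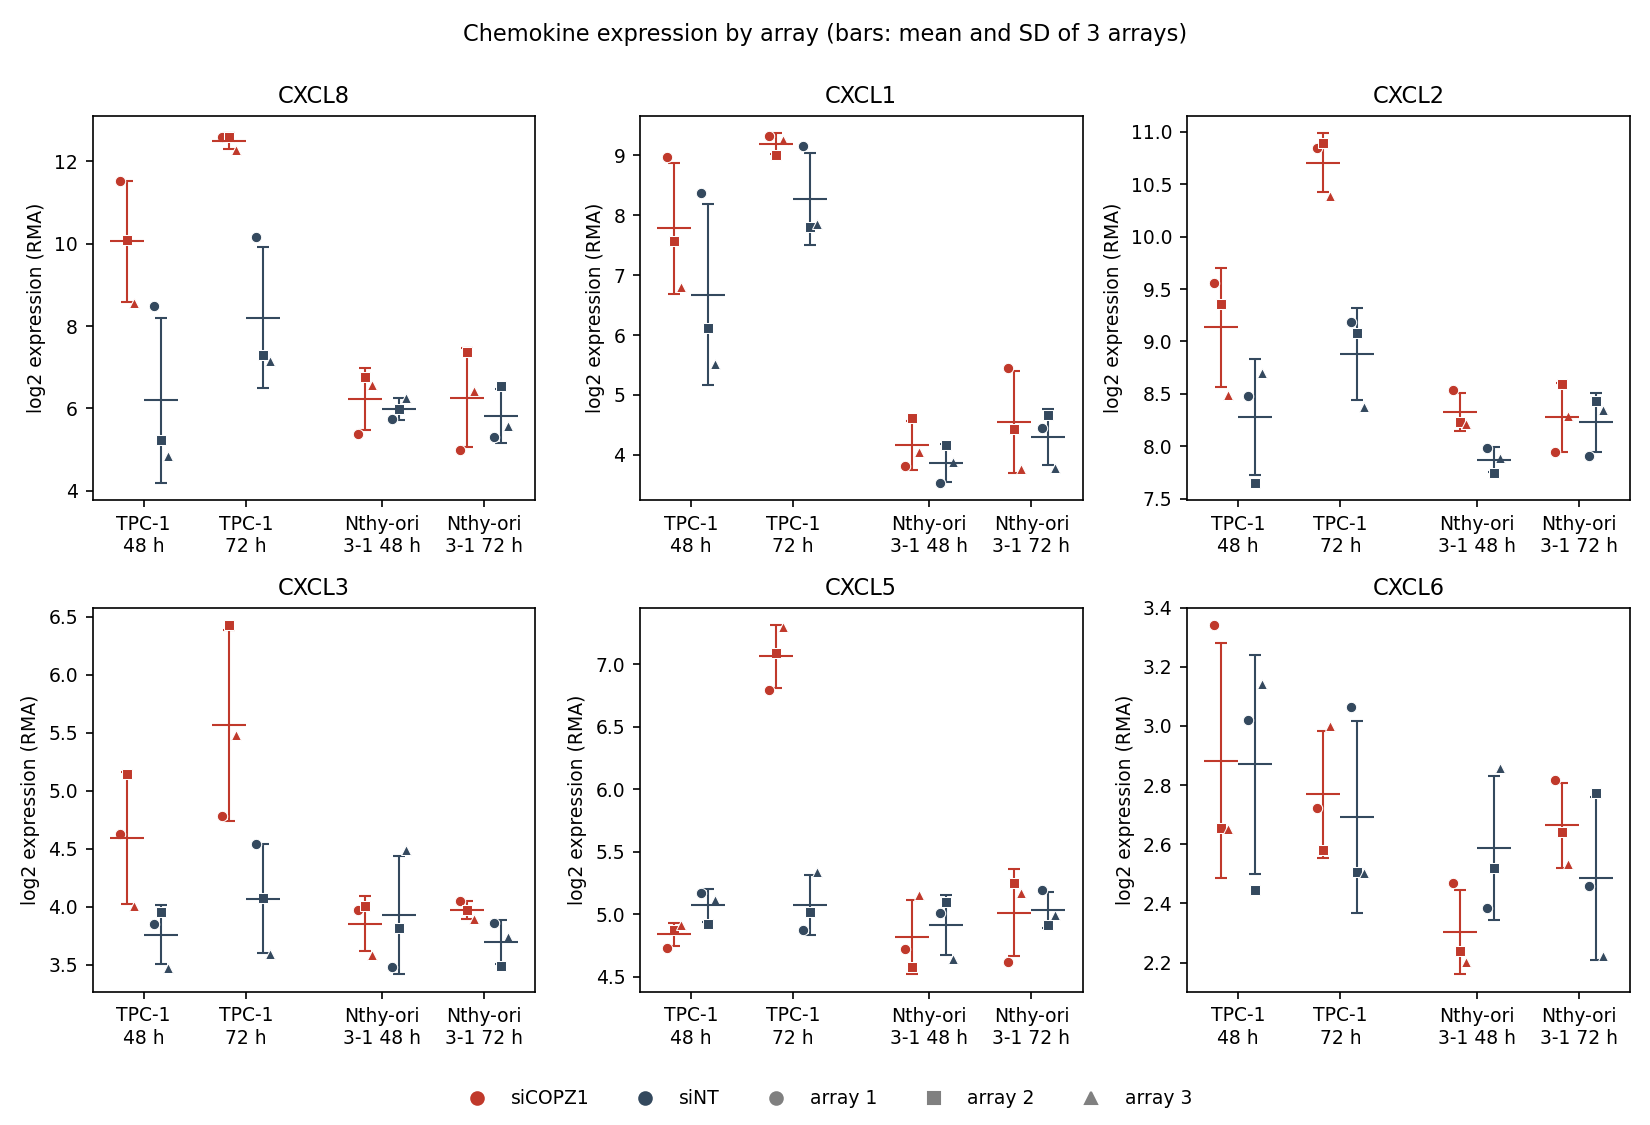
Log2 expression (RMA) of each chemokine on each of the 24 arrays (circle, square and triangle for arrays 1, 2 and 3), with siCOPZ1 in red to the left of siNT in dark blue, and the mean and SD of 3 arrays as bars; the vertical scale differs between panels. CXCL8, CXCL2 and CXCL5 are highest in TPC-1 with siCOPZ1 at 72 h, without overlap with any other group, and CXCL6 stays between 2.20 and 3.34 throughout.

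In TPC-1 at 72 h, CXCL8, CXCL5, CXCL2 and CXCL3 rose with siCOPZ1, while CXCL1 and CXCL6 did not pass the test. A gene is called here when its limma p-value, adjusted over all 18632 genes of a comparison by Benjamini and Hochberg, is below 0.05. By that rule 4 of 6 chemokines were called higher and 0 lower, against 7.03% of all genes called higher. The median difference of the 6 was 1.66 on the log2 scale, beside -0.005 for all genes. Each array reads a whole well, so more producing cells and more mRNA per cell cannot be told apart, and the values are mRNA, not secreted protein.

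CXCL8 (ENSG00000169429), the agonist of both receptors, had log2 levels of 12.59, 12.59 and 12.26 on the siCOPZ1 arrays and 10.17, 7.30 and 7.14 on the siNT arrays. All siCOPZ1 arrays lay above all siNT arrays, and the siCOPZ1 arrays were close together while siNT array 1 stood well above the other siNT arrays. The difference was 4.28 ± 0.88 (SE, 3 arrays per group, limma adjusted p = 0.00217), which is 19.4-fold with a 95% interval of 5.41 to 69.6. Without siNT array 1 the difference was 5.26 (adjusted p = 0.000421). It was 3.83 without siNT array 2 (adjusted p = 0.0149) and 3.75 without siNT array 3 (adjusted p = 0.0180).

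Among the agonists of CXCR2, CXCL5 (ENSG00000163735) had levels of 6.80, 7.09 and 7.30 with siCOPZ1 and 4.87, 5.02 and 5.34 with siNT. The groups were far apart relative to their spread, with SDs of 0.25 and 0.24. CXCL5 rose 3.96-fold, a log2 difference of 1.99 ± 0.19 (SE, limma adjusted p = 5.57e-07). CXCL2 (ENSG00000081041) had 10.85, 10.89 and 10.39 with siCOPZ1 and 9.19, 9.08 and 8.38 with siNT, again without overlap. It rose 3.54-fold, a difference of 1.82 ± 0.29 (adjusted p = 0.000180).

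CXCL3 (ENSG00000163734), a close copy of CXCL2 and CXCL1, had 4.78, 6.43 and 5.48 with siCOPZ1 and 4.54, 4.08 and 3.59 with siNT. The lowest siCOPZ1 array was only just above the highest siNT array, both being array 1. CXCL3 rose 2.82-fold, a difference of 1.49 ± 0.34 (SE, limma adjusted p = 0.00494). The call was lost when the fit held only the 6 arrays compared (adjusted p = 0.0803), and without all arrays numbered 1 the difference was 2.12 (adjusted p = 0.00530). CXCL3 is dim on these arrays, with 15.1% of genes lower over the 24 arrays, and RMA compresses the changes of dim genes.

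CXCL1 (ENSG00000163739), the third of these copies, had 9.32, 9.00 and 9.26 with siCOPZ1 and 9.16, 7.81 and 7.86 with siNT. The siNT array 1 lay within the siCOPZ1 range, so the groups overlapped. The difference was 0.92 ± 0.60 (SE, 95% interval -0.33 to 2.18, limma adjusted p = 0.359), and without all arrays numbered 1 it was 1.30 (adjusted p = 0.0374). In 11 alternative settings the difference did not pass, with values of 0.69 to 1.36 (limma adjusted p = 0.176 to 0.597). Between arrays of the same number it was 0.16, 1.20 and 1.41. CXCL6 (ENSG00000124875), the near copy of CXCL5 that binds both receptors, had 2.72, 2.58 and 3.00 with siCOPZ1 and 3.07, 2.51 and 2.50 with siNT, a difference of 0.08 (95% interval -0.38 to 0.53, adjusted p = 0.874). Only 0.494% of genes had a lower mean than CXCL6 over the 24 arrays, so a change below the reach of the probes would not be seen. Exact two-sided permutation of the 6 arrays gave p = 0.1 for each of the 4 called genes, the smallest that 3 arrays against 3 allow, and p = 0.2 for CXCL1 and 0.6 for CXCL6.

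**Figure D3:**
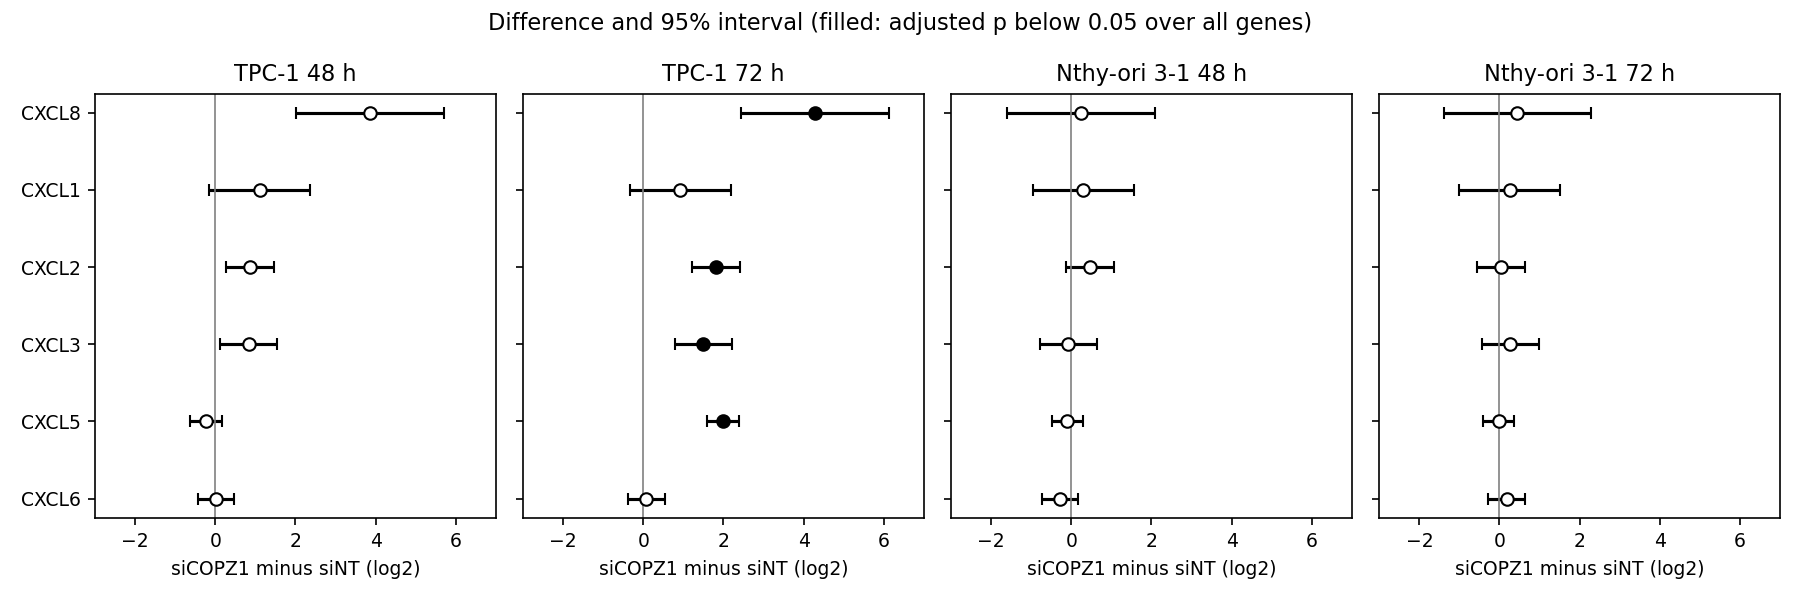
Log2 difference of siCOPZ1 minus siNT (points) with its 95% interval (bars) for each chemokine, in TPC-1 at 48 h and 72 h and in Nthy-ori 3-1 at 48 h and 72 h; filled points have a limma adjusted p below 0.05 over all genes. Filled points occur in TPC-1 at 72 h only, for CXCL8 at 4.28, CXCL5 at 1.99, CXCL2 at 1.82 and CXCL3 at 1.49.

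In TPC-1 at 48 h, CXCL8 already stood 14.5-fold above siNT on average, but 0 of 6 chemokines passed the test over all genes in limma, against 0.166% of all genes called in either direction. At an unadjusted p below 0.05 there were 3 chemokines, CXCL8, CXCL2 and CXCL3, and 1685 genes, or 9.04% of all. CXCL8 had 11.52, 10.08 and 8.57 with siCOPZ1 and 8.49, 5.24 and 4.85 with siNT. The lowest siCOPZ1 array was barely above the highest siNT array, and within each group array 1 was highest and array 3 lowest. The difference was 3.86 ± 0.88 (SE, limma adjusted p = 0.0841).

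The labels do not say whether an array number marks a shared experiment. In this line and at this time, arrays of the same number deviated together. Taken as deviations from their group's mean, arrays 1, 2 and 3 of siCOPZ1 correlated with those of siNT that bear the same number at 0.404, 0.292 and 0.145. Within numbers, the CXCL8 difference was 3.03 for arrays 1, 4.84 for arrays 2 and 3.72 for arrays 3. With the number as a replicate block, CXCL8 passed the test with an adjusted p of 0.0228 in limma. It also passed without siNT array 1 (5.01, adjusted p = 0.0270), without siCOPZ1 array 3 (4.61, adjusted p = 0.0483) and without all arrays numbered 1 (4.28, adjusted p = 0.00646). In the other 9 alternative settings CXCL8 did not pass, with differences of 3.13 to 3.86 (limma adjusted p = 0.0541 to 0.723).

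**Figure D4:**
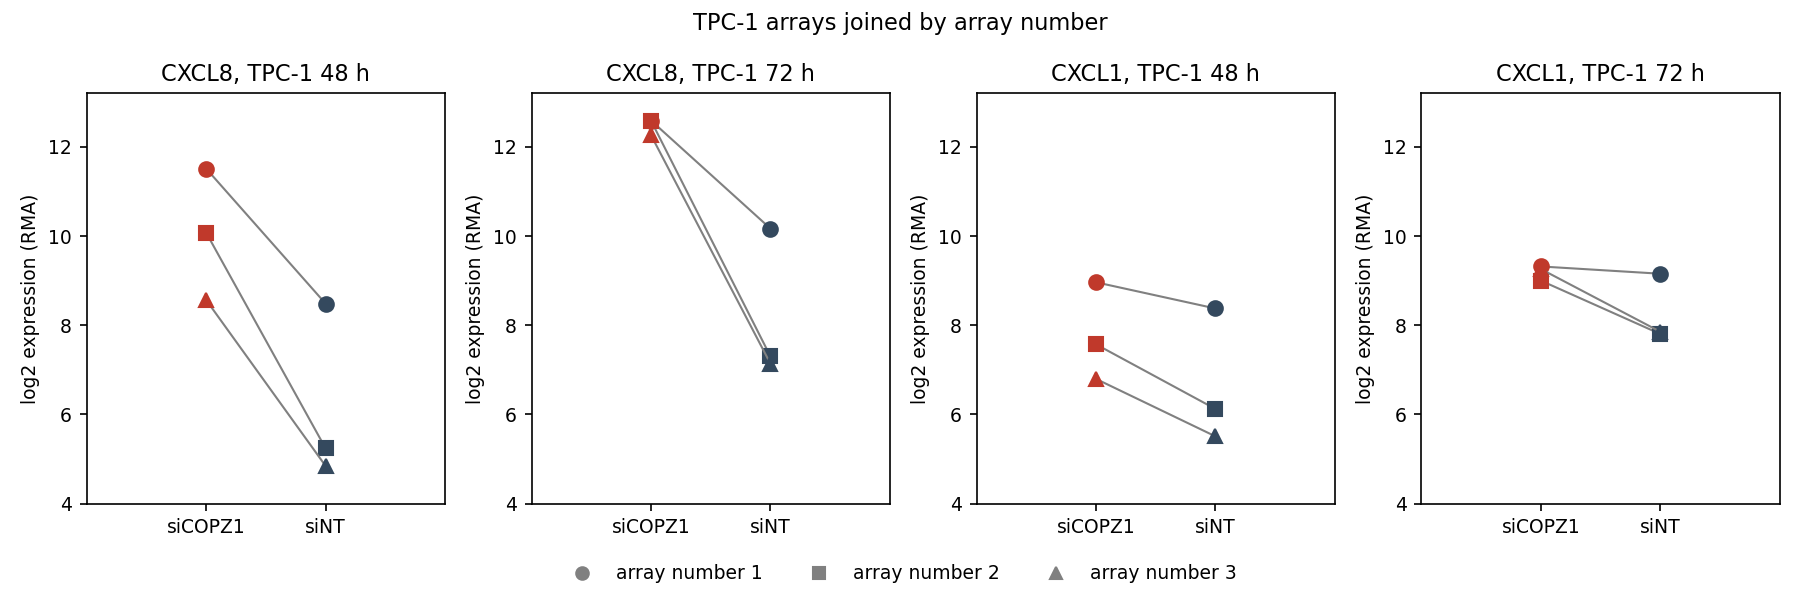
Log2 expression (RMA) of CXCL8 and CXCL1 in TPC-1 at 48 h and 72 h, with siCOPZ1 on the left, siNT on the right and a line joining arrays of one number (circle 1, square 2, triangle 3). Array 1 is the highest of its group in all 4 groups for both genes, and each line runs downwards to siNT.

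The other chemokines had smaller mean differences at 48 h. CXCL1 had 8.97, 7.57 and 6.80 with siCOPZ1 and 8.38, 6.13 and 5.51 with siNT, which overlapped (difference 1.11 ± 0.60, limma adjusted p = 0.619). Its differences within numbers were 0.59, 1.45 and 1.29. CXCL2 had 9.56, 9.36 and 8.49 with siCOPZ1 and 8.48, 7.65 and 8.70 with siNT, a difference of 0.86 ± 0.29 (adjusted p = 0.315) with the siNT array 3 above the siCOPZ1 array 3.

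CXCL3 had 4.63, 5.15 and 4.01 with siCOPZ1 and 3.85, 3.95 and 3.47 with siNT, without overlap (0.84 ± 0.34, limma adjusted p = 0.462). CXCL5 had 4.73, 4.87 and 4.91 with siCOPZ1 and 5.17, 4.93 and 5.11 with siNT. Its siCOPZ1 arrays thus lay below its siNT arrays at 48 h, by a small difference of -0.23 ± 0.19 (adjusted p = 0.773) opposite in sign to that at 72 h. CXCL6 differed by 0.01 (adjusted p = 0.993).

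Whether the effect itself grew between the times was tested as a difference of differences. In TPC-1, 1 of 6 chemokines had a larger effect at 72 h than at 48 h, beside 0.939% of all genes, and that was CXCL5, by 2.22 ± 0.27 (SE, limma adjusted p = 0.000130). CXCL2 had an effect larger by 0.97 at 72 h (adjusted p = 0.246). For CXCL8 the 2 effects differed by 0.42 ± 1.25 (95% interval -2.19 to 3.02, adjusted p = 0.913), an interval too wide to show whether they are alike. CXCL8 was above siNT without overlap at both times, and CXCL5 at 72 h alone. The difference between these genes was not tested. COPZ1 remained at 10.5% of its siNT level in TPC-1 at 48 h and 22.2% at 72 h. Time and depth of depletion thus cannot be told apart in a comparison of the effect between times.

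In Nthy-ori 3-1, no chemokine was called with siCOPZ1 at either time, and COPZ1 was the 1 gene of all that was called at each time, or 0.00537%. At 48 h limma called 0 of 6, and 0 of 6 had an unadjusted p below 0.05, beside 906 genes (4.86%). At 72 h it called 0 of 6 against the same background of 0.00537%, with 0 of 6 and 574 genes (3.08%) at an unadjusted p below 0.05. The median difference of the 6 was 0.08 at 48 h and 0.22 at 72 h.

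CXCL8 in Nthy-ori 3-1 had 5.38, 6.77 and 6.56 with siCOPZ1 and 5.74, 5.98 and 6.26 with siNT at 48 h, and 5.00, 7.36 and 6.43 with siCOPZ1 and 5.32, 6.55 and 5.58 with siNT at 72 h. The groups overlapped at both times. The differences were 0.24 (95% interval -1.60 to 2.08) and 0.45 (-1.39 to 2.29), so a log2 difference of 2 is within both intervals. Their width comes from 1 spread shared by all 8 groups, those of TPC-1 included. The SDs with siCOPZ1 and siNT were 0.75 and 0.26 at 48 h and 1.19 and 0.65 at 72 h. In the TPC-1 groups they ran from 0.19 to 2.00.

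CXCL2 in Nthy-ori 3-1 had 8.54, 8.23 and 8.22 with siCOPZ1 and 7.98, 7.74 and 7.89 with siNT at 48 h, a difference of 0.46 without overlap (limma adjusted p = 0.989), and at 72 h the difference was 0.04. CXCL1 had between 3.53 and 5.45 on all 12 arrays of this line, with differences of 0.30 at 48 h and 0.26 at 72 h. CXCL3 differed by -0.07 and 0.28, CXCL5 by -0.10 and -0.02 and CXCL6 by -0.28 and 0.18.

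The effect of siCOPZ1 was larger in TPC-1 than in Nthy-ori 3-1 for CXCL5 and CXCL2 at 72 h. In that test of the difference between lines, 2 of 6 chemokines were called higher, beside 1.85% of all genes. The CXCL5 effects of 1.99 in TPC-1 and -0.02 in Nthy-ori 3-1 differed by 2.00 ± 0.27 (SE, limma adjusted p = 0.000153), and the CXCL2 effects of 1.82 in TPC-1 and 0.04 in Nthy-ori 3-1 by 1.78 ± 0.41 (adjusted p = 0.0143). The CXCL2 call was lost without TPC-1 siNT array 3 (1.53, adjusted p = 0.05001) and without all arrays numbered 1 (1.86, adjusted p = 0.0875). COPZ1 itself remained at 10.5% and 22.2% of its siNT level in TPC-1 at 48 h and 72 h, and at 25.8% and 33.6% in Nthy-ori 3-1. At either time, line and depth of depletion thus cannot be told apart in a comparison of the effect between lines.

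CXCL8 had the widest gap between lines at 72 h, 3.83 ± 1.25 (SE, 95% interval 1.22 to 6.43), which did not pass the test over all genes (limma adjusted p = 0.0957). It passed without TPC-1 siNT array 1 (4.81, adjusted p = 0.0236) and without all arrays numbered 1 (4.37, adjusted p = 0.00447). In 15 alternative settings the CXCL8 gap did not pass, with values of 3.20 to 4.38 (limma adjusted p = 0.0696 to 0.234). CXCL3 effects differed by 1.22 (adjusted p = 0.189) and CXCL1 effects by 0.67 (adjusted p = 0.775).

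At 48 h the line difference of the effect was called for 0 of 6 chemokines by limma and for 0% of all genes, while 1 chemokine and 615 genes had an unadjusted p below 0.05. That chemokine was CXCL8, with a difference of 3.62 ± 1.25 (adjusted p = 1.00). In Nthy-ori 3-1 the difference of the effect between 72 h and 48 h was called by limma for 0 of 6 chemokines, against 0% of all genes, with 0 of 6 and 485 genes at an unadjusted p below 0.05.

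The lines were also compared without depletion. With siNT and over both times, limma called 2 of 6 chemokines higher in TPC-1 than in Nthy-ori 3-1, where 20.0% of all genes were called higher, so the count is near that background. CXCL1 was 10.5-fold higher, a difference of 3.39 ± 0.43 (SE, limma adjusted p = 1.22e-06), with 5.51 to 9.16 on the 6 TPC-1 siNT arrays and 3.53 to 4.67 on the 6 Nthy-ori 3-1 siNT arrays. CXCL2 was higher by 0.53 ± 0.20 (adjusted p = 0.0387). That call was lost without any of 7 of the 12 siNT arrays, namely TPC-1 arrays 1 and 3 at 48 h, TPC-1 arrays 1 and 2 at 72 h, Nthy-ori 3-1 arrays 2 and 3 at 48 h and its array 1 at 72 h (adjusted p = 0.0587 to 0.115). CXCL8 differed by 1.30 ± 0.62 (adjusted p = 0.103), and the value turned on single TPC-1 siNT arrays. It was 1.63 without array 3 at 48 h (adjusted p = 0.0477), 0.72 without array 1 at 48 h (adjusted p = 0.333) and 0.80 without array 1 at 72 h (adjusted p = 0.305). Without all arrays numbered 1 it was 0.042 (limma adjusted p = 0.941).

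Between 48 h and 72 h with siNT, 0 of 6 chemokines were called in TPC-1 by limma, against 2.10% of all genes, and 3 of 6 and 3250 genes had an unadjusted p below 0.05. The later siNT arrays of TPC-1 had higher means of CXCL8 by 2.01 ± 0.88 (adjusted p = 0.238), of CXCL1 by 1.60 ± 0.60 (adjusted p = 0.164) and of CXCL2 by 0.61 (adjusted p = 0.280). For CXCL8 and CXCL1 the times overlapped, because siNT array 1 at 48 h had 8.49 for CXCL8 and 8.38 for CXCL1, above arrays 2 and 3 at 72 h. Without that array both passed, CXCL8 at 3.16 (adjusted p = 0.0205) and CXCL1 at 2.46 (adjusted p = 0.00719). Leaving out other siNT arrays lowered the values, CXCL8 to 1.03 without array 1 at 72 h (adjusted p = 0.629) and 1.34 without array 3 at 48 h (adjusted p = 0.533), and CXCL1 to 1.02 without array 3 at 48 h (adjusted p = 0.451). CXCL2 ran from 0.29 without array 2 at 48 h (adjusted p = 0.785) to 0.86 without array 3 at 72 h (adjusted p = 0.193). In Nthy-ori 3-1 with siNT, 0 of 6 chemokines and 0% of all genes were called between the times, with 0 of 6 and 1548 genes at an unadjusted p below 0.05.

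The order of the group means differed between the genes. For CXCL1 all 4 Nthy-ori 3-1 groups, with means of 3.86 to 4.55, lay below all 4 TPC-1 groups, with means of 6.67 to 9.19, and within each line each group overlapped its neighbour in rank. For CXCL8 the top of the order was TPC-1 with siCOPZ1 at 72 h (12.48), then TPC-1 with siCOPZ1 at 48 h (10.06), and these neighbours did not overlap. TPC-1 with siNT at 48 h (6.19) stood among the Nthy-ori 3-1 groups for CXCL8. CXCL5 had means of 4.82 to 5.08 in 7 groups and stood at 7.06 in TPC-1 with siCOPZ1 at 72 h. CXCL2 had 10.71 in that group and 7.87 to 9.14 in the others, and CXCL3 had 5.56 there, overlapping TPC-1 with siCOPZ1 at 48 h (4.59). For CXCL6 every group overlapped its neighbour in rank. CXCL1, CXCL2 and CXCL3 transcripts are much alike, the probe sequences were not used here, and whether their probes read one another's transcripts was not tested.

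Array 1 was the highest of its group in 4 of 4 TPC-1 groups for both CXCL8 and CXCL1. In Nthy-ori 3-1 it was the highest in 0 of 4 groups for CXCL8 and in 1 of 4 for CXCL1. The interleukin 1 gene IL1A had the same feature in TPC-1, with 9.73, 7.26 and 6.88 on the siCOPZ1 arrays and 7.45, 5.90 and 5.53 on the siNT arrays at 48 h. So did NFKBIA, the inhibitor of NF-kB that NF-kB itself induces, with 9.93, 9.12 and 8.35 on siCOPZ1 arrays and 8.69, 7.20 and 7.54 on siNT arrays. CXCL5 did not share it, array 3 being the highest in 3 of 4 TPC-1 groups. The source of the gap was not tested.

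Genes that act on, with or through these chemokines were followed in the same way. Of 55 such genes in 8 lists, 23 were called in either direction in TPC-1 at 72 h, where 14.4% of all genes were, and 2 at 48 h, where 0.166% were. Genes called higher made up 7.03% of all genes at 72 h. In Nthy-ori 3-1 limma called 0 of 55 at either time, with 4 at 48 h and 0 at 72 h at an unadjusted p below 0.05, against 4.86% and 3.08% of all genes. The lists were drawn up with results of these data known, so their counts are a description.

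The chemokines' receptors were low and did not pass the test in TPC-1 at 72 h. CXCR1 had 3.64 to 4.29 with siCOPZ1 and 3.73 to 4.29 with siNT (difference 0.08, limma adjusted p = 0.837). CXCR2 had 4.34 to 5.70 with siCOPZ1 and 3.80 to 4.15 with siNT (0.77, adjusted p = 0.412), and the scavenger receptor ACKR1 differed by 0.63 (adjusted p = 0.0681). The neighbours in the cluster, the platelet chemokines PPBP, PF4 and PF4V1, differed by 0.03, -0.38 and -0.35, with 0 of 3 called.

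Of 12 cytokines and receptors known to induce these chemokines, 5 rose and 1 fell in TPC-1 at 72 h, with a median difference of 0.29. IL1A rose most, by 5.27 ± 0.61 (SE, limma adjusted p = 6.38e-06), with 12.16, 12.12 and 11.99 on siCOPZ1 arrays and 8.32, 5.68 and 6.48 on siNT arrays. IL1B, the secreted form of interleukin 1, rose by 3.57 and TNF by 2.45. The TNF receptor genes moved in opposite directions, TNFRSF1B rising by 3.39 while TNFRSF1A, the receptor that most cells carry, fell by 0.77. IL36G, an interleukin 1 relative of epithelia, rose by 1.35, while IL17A, IL17F, IL1R1, IL1RAP, IL17RA and IL17RC were not called. TNF was 1 of the 2 list genes that had risen at 48 h, by 1.79 (adjusted p = 0.0414), with 9.06, 7.94 and 6.83 on siCOPZ1 arrays and 6.39, 5.77 and 6.30 on siNT arrays.

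Genes of the NF-kB route were among those that rose. Of 8 NF-kB and C/EBP factors, 4 rose: NFKB2 by 1.55, NFKB1 by 1.46, CEBPB by 1.15 and RELB by 1.10. RELA, a transactivating subunit, differed by 0.15, REL by 0.46, NFKBIZ by 0.80 and CEBPD by -0.25, and these 4 were not called. All 6 feedback inhibitors of NF-kB on the list rose, TNIP3 by 3.52, TNFAIP3 by 3.49, NFKBIA by 1.70, TNIP1 by 1.17, NFKBIB by 0.70 and NFKBIE by 0.68. TNFAIP3 (A20), a ubiquitin-editing brake on the TNF route, had a 48 h difference of 2.17 (limma adjusted p = 0.0667).

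Chemokine mRNAs are destroyed through AU-rich elements and stem loops in their tails, and 1 of 8 genes of that control rose, a share near the 7.03% of all genes called higher. This was ZC3H12A (regnase-1), an endonuclease of inflammatory mRNAs, by 1.76. ZFP36 (tristetraprolin), which binds AU-rich elements, differed by 0.51 (limma adjusted p = 0.411), and ZFP36L1, ZFP36L2, ELAVL1, KHSRP, HNRNPD and ARID5A were not called. mRNA decay itself was not measured.

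Of 8 proteases that trim these chemokines or inactivate them, 2 rose, the collagenase MMP1 by 5.25 and the gelatinase MMP9 by 1.86. MMP1 had also risen at 48 h, by 1.81 (limma adjusted p = 0.0143). Of 7 partner signals, 4 rose: CCL20, a chemokine of dendritic cells and T helper 17 cells, by 4.10, CSF2 (GM-CSF) by 3.52, IL6 by 2.89 and CSF3 (G-CSF), the growth factor of neutrophils, by 2.35. S100A8 and S100A9, the subunits of calprotectin, differed by 0.01 and -0.16 and LCN2 by 0.67, and these 3 were not called.

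**Figure D5:**
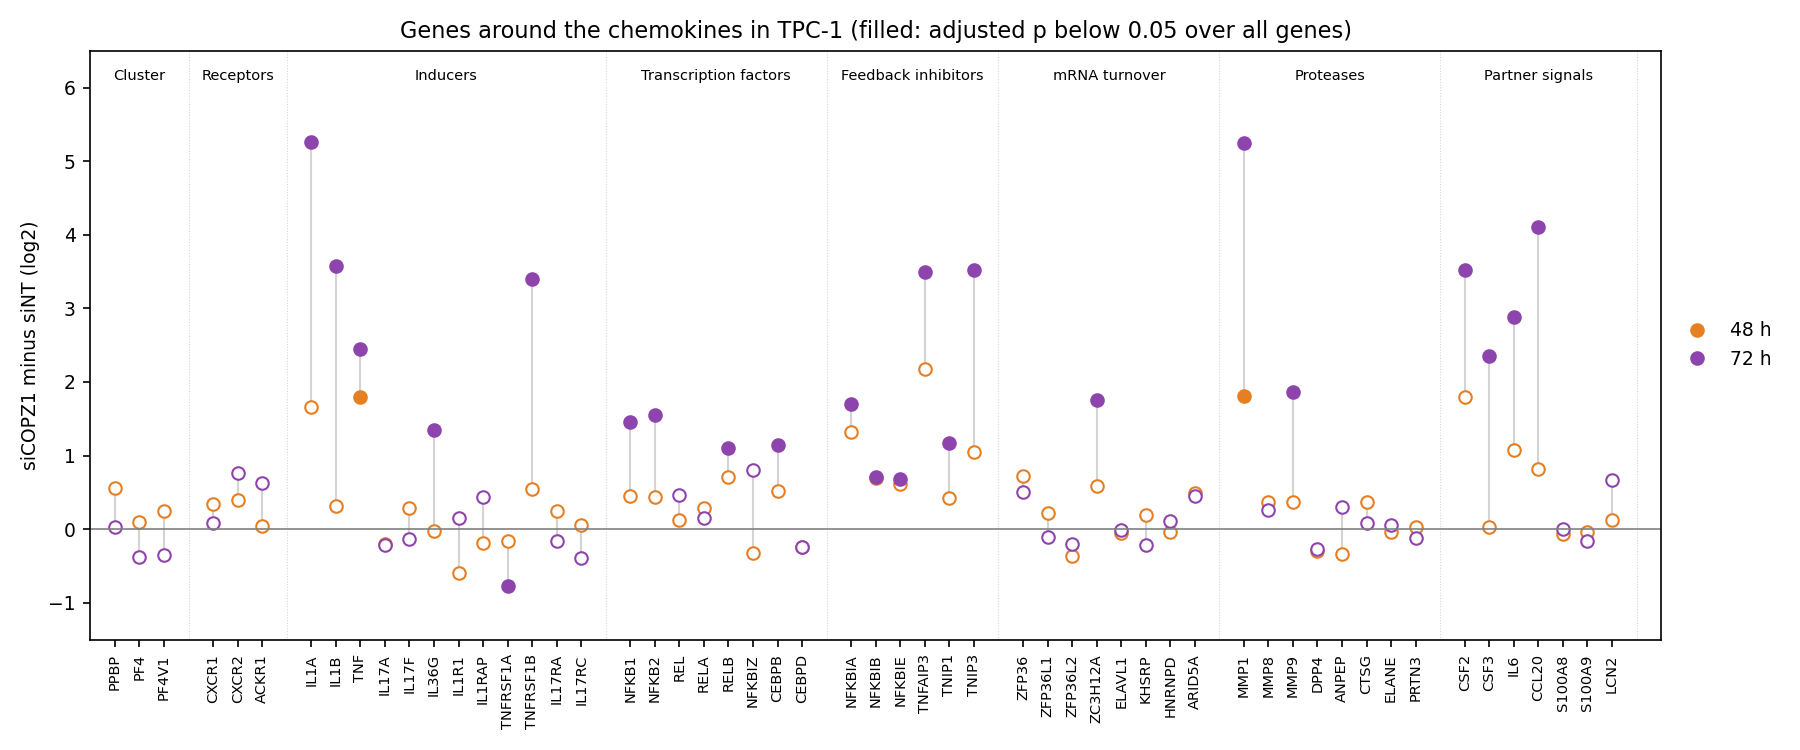
Log2 difference of siCOPZ1 minus siNT in TPC-1 for the 55 genes of the 8 lists, at 48 h (orange) and 72 h (purple), joined by a grey line; filled points have a limma adjusted p below 0.05 over all genes. The inducers IL1A, IL1B and TNF, the 6 feedback inhibitors and 4 partner signals are filled at 72 h, TNF and MMP1 alone at 48 h.

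The genes whose level followed the chemokines most closely were found by Pearson correlation over the 24 arrays. The arrays fall into 8 groups of 2 lines, so the correlation reflects both differences between groups and differences within them, and it has no p here. The mean of the 6 chemokines, each taken relative to its own mean, was most like IRAK2 (0.97), TNFAIP3 (0.97), IL1A (0.97), NFKBIA (0.97) and TNF (0.97). The chemokines were not scaled, so those with a wide range weigh more in this mean. CXCL8 ran from 4.85 to 12.59 over the arrays, and CXCL6 from 2.20 to 3.34. IRAK2, a kinase below the interleukin 1 receptor, had 10.48, 10.46 and 10.22 in TPC-1 with siCOPZ1 at 72 h and 8.64, 7.29 and 7.29 with siNT, and 6.15 to 6.88 on all Nthy-ori 3-1 arrays.

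Taken singly, the chemokines had different closest genes. For CXCL8 they were the adhesion molecule gene ICAM1 (0.97), NFKBIA (0.97) and TNFAIP3 (0.96), and for CXCL3 the interleukin 23 subunit IL23A (0.87), TRAF1 (0.86) and RELB (0.85). For CXCL5 they were the thioesterase OLAH (0.91), the interleukin IL36B (0.91) and the protease inhibitor SERPINB2 (0.91). CXCL1 was closest to the tight junction gene CLDN1 (0.97), SGPP2 (0.96) and SBNO2 (0.96). CXCL2 was closest to TMEM132A (0.95), SCG5 (0.94) and C1QTNF1 (0.93), and CXCL6 to SEMA6A (0.72), MT-CO1 (0.72) and ABCC5 (0.69).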

How the data were processed

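Total RNA was labelled for Affymetrix whole-transcript arrays, per the labels' protocols. The authors' deposited values are log2 levels, 1 for each gene on each array, made with RMA, per the submitters' processing notes. RMA corrects background, equalises the arrays' distributions and summarises probes, so a shift shared by most genes is removed. The sources used here do not give the array type, probe definition, software version or build. Of 18637 lines, 28 symbols had become dates and were kept under their Ensembl identifiers, and of lines sharing 1 of 5 symbols the one with the higher mean was kept, leaving 18632 genes.

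A linear model with 1 mean for each of 8 groups covered all 24 arrays; limma 3.58.1, run under R 4.3.3 with the default settings of lmFit, contrasts.fit and eBayes, fitted it. It gave 11 two-sided contrasts, each with Benjamini-Hochberg adjustment over all genes and a threshold of 0.05. Exact permutations used scipy 1.17.1, and promoters were aligned with Biopython 1.88. The fit was tested on simulated data. With 3 arrays per group, precision is limited by their number. Array numbers correlated above 0.1 in every pair in TPC-1 at 48 h alone, and the numbers come from the sample titles. Alternatives were other sets of arrays, array number as a block, centring, a filter on dim genes, trended robust variances and leaving arrays out. The chemokines, gene lists and tests were chosen with earlier results of these data known. Genes most like the chemokines were named by correlation rank, with Y-linked genes, clone names and dates passed over.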

Additional observations from a re-analysis of the deposited data

Results flagged for a closer look

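In 3 tests, the siCOPZ1 effect on a chemokine differed between lines or between times. At 72 h the effect on CXCL5 was larger in TPC-1, by 2.00 on the log2 scale relative to Nthy-ori 3-1 (limma adjusted p = 0.000153), and the effect on CXCL2 by 1.78 (adjusted p = 0.0143). In that comparison 1.85% of all genes were called higher. The CXCL2 call was lost without TPC-1 siNT array 3 (adjusted p = 0.05001) and without all arrays numbered 1 (adjusted p = 0.0875). COPZ1 remained at 22.2% of its siNT level in TPC-1 and 33.6% in Nthy-ori 3-1 at 72 h, so line and depth of depletion cannot be told apart. In TPC-1 the effect on CXCL5 was larger at 72 h than at 48 h by 2.22 (adjusted p = 0.000130), beside 0.939% of all genes called higher. COPZ1 remained at 10.5% of its siNT level in TPC-1 at 48 h and 22.2% at 72 h, so time and depth of depletion cannot be told apart. In each of these comparisons the siCOPZ1 arrays of TPC-1 at 72 h lay above the siNT arrays without overlap.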

How the results depend on the processing

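In TPC-1 at 72 h, the 4 called chemokines numbered 2 to 5 over 13 alternatives, 2 when the dimmest genes, CXCL3, CXCL5 and CXCL6 among them, were left out. That filter also left 1 chemokine called in the line difference at 72 h and 0 in the time difference in TPC-1, since CXCL5 was no longer tested. With the replicate block, CXCL8 was called in TPC-1 at 48 h (1 chemokine), CXCL1 joined the calls at 72 h (adjusted p = 0.0324 in limma), CXCL8 those in the line difference at 72 h (adjusted p = 0.00825), and 2, CXCL1 and CXCL8, were called between the times with siNT in TPC-1 (adjusted p = 0.0339 and 0.0318). In TPC-1 at 48 h every pair of same-numbered arrays deviated together (correlations of 0.145 to 0.404). In the other 3 settings arrays 1 and 2 did too (0.158 to 0.234), but arrays 3 were under 0.1 (0.0279 to 0.0722). These correlations pair siCOPZ1 with siNT arrays of 1 line and time, as did the block for siCOPZ1 effects. For siNT between times the block took a number as shared by both times, and for siNT between lines by all arrays. The correlations do not address such sharing. The block changed no other chemokine call. Without all arrays numbered 1 the counts were 1 in TPC-1 at 48 h, 1 with siNT between lines and 2 with siNT between times in TPC-1. Leaving out single arrays gave 0 to 1 in TPC-1 at 48 h, 1 to 3 in the line difference at 72 h, 1 to 2 with siNT between lines and 0 to 2 with siNT between times in TPC-1. In the other comparisons the count of called chemokines did not change.

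Values that changed sign were all uncalled. Without all arrays numbered 1 these were CXCL6 in TPC-1 at 48 h (-0.14), and CXCL1 (-0.12) and CXCL5 (0.26) in Nthy-ori 3-1 at 72 h. Over single arrays left out, in Nthy-ori 3-1 at 72 h CXCL1 ran from -0.19 to 0.65, CXCL2 from -0.12 to 0.21, CXCL5 from -0.14 to 0.18 and CXCL8 from -0.10 to 1.08. At 48 h there, CXCL3 ran from -0.30 to 0.21, CXCL5 from -0.27 to 0.021 and CXCL8 from -0.025 to 0.67. In TPC-1, CXCL6 ran from -0.22 to 0.15 at 48 h and from -0.040 to 0.26 at 72 h, and the time difference of CXCL8 from -0.73 to 1.40. Except for the filter, the causes were not tested. Genes called ran over the alternatives from 1507 to 3474 (2692 as reported) in TPC-1 at 72 h, 1 to 60 (31) at 48 h, 442 to 1300 (749) and 0 to 7 (0) in the line differences at 72 h and 48 h, 77 to 851 (381) and 0 to 1 (0) in the time differences in TPC-1 and Nthy-ori 3-1, 0 to 1802 (391) and 0 to 54 (0) with siNT between times in TPC-1 and Nthy-ori 3-1, and 0 to 1 (1) in either Nthy-ori 3-1 effect. CXCL6 is near the low end of the signal, which limits what its values can show.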
